A study of Homo sapiens with 9 samples.

Results

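The mitosis and spindle genes are 49 named genes whose products carry a cell through mitosis: the CDK1 switch, the spindle checkpoint, the kinetochore, the spindle kinases, the spindle motors, the anaphase machinery and the cytokinesis machinery. They were chosen by name, and each was read from a probe set that the array's annotation assigns to exactly 1 gene, taking the brightest (by its average on all 9 arrays) where a gene had several. All 49 had such a probe set, among 19775 genes measured in the same way. The study profiled RNA from WA09, an established human embryonic stem cell line, on 1-colour Affymetrix arrays, with 3 arrays in each of 3 groups, in a project on binding sites of the tumour suppressor p53. The damage group was given DOX (doxorubicin, a DNA-damaging topoisomerase poison) for 5 h, at a dose that is not given in the sources used here. The differentiating group spent 2 days in 1 µM retinoic acid (RA), in medium to which no FGF was added, and the pluripotent group was kept in medium that contained FGF. RA and the absence of added FGF therefore cannot be told apart. The line was grown on irradiated mouse embryonic fibroblasts or free of feeders, and which of these gave each array is not stated. Separate cultures are not named for the 3 arrays of any group, so p-values reflect array-to-array spread alone, possibly technical.

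Cyclin B and the kinase CDK1 start mitosis, the spindle checkpoint holds it until kinetochores are attached to microtubules, and the ubiquitin ligase APC/C then destroys securin and cyclin B to let chromatids separate. Many of these genes are transcribed mainly late in the cell cycle. Their promoters often carry CCAAT boxes bound by NF-Y and, close to the start site, a short element called the CHR. The CHR, for example TTTGAA or TTTAAA, is bound by the DREAM and MuvB complexes. In many human cells p53, through the CDK inhibitor p21 (CDKN1A), is known to lower transcription of such genes after DNA damage. In embryonic stem cells, which cycle rapidly, mitotic genes are highly expressed.

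The promoter sequences show what the members share that their choice by name did not use. RefSeq promoter windows of assembly GRCh38.p14, running from 250 bases before to 50 bases after a start site, were listed for 41 of the 49 members (not for AURKA, BIRC5, BUB3, FOXM1, RACGAP1, TPX2, TTK and UBE2C) and for 15384 of the genes on the array. Each window was searched on both strands. TTTGAA lay in 26 of 41 member windows (63.4%), against 11.9% of the windows of all array genes. TTTAAA lay in 15 (36.6%), against 9.18%, and CCAAT in 31 (75.6%), against 36.1%. Both CCAAT and TTTGAA were found in 22 windows (53.7%), against 4.82%. The E2F-type motifs TTTGGCGC and TTTCGCGC were each found in 1 member window. Matches of different motifs shared bases at 1 place, in the CDCA8 window. The TTTGAA matches lay close to the start: 22 of 41 member windows (53.7%) had one within 50 bases of it, against 3.23% of the windows of array genes. That narrower window was chosen after the positions had been seen. A match is a run of letters and was not tested as a binding site.

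The windows of BUB1 and ECT2, which had the largest falls after DOX among the members with a listed window, and of CCNB1, the gene of cyclin B1, are shown whole, with matches of the CHR (both forms) and of CCAAT on either strand in capitals.
BUB1, chr2:110678014-110678313, minus strand: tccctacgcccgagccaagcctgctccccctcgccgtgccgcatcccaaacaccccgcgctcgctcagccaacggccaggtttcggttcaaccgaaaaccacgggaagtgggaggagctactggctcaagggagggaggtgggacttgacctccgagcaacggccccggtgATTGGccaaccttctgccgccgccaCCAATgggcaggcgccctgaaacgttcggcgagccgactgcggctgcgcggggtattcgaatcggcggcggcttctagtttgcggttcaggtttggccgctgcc
ECT2, chr3:172750476-172750775, plus strand: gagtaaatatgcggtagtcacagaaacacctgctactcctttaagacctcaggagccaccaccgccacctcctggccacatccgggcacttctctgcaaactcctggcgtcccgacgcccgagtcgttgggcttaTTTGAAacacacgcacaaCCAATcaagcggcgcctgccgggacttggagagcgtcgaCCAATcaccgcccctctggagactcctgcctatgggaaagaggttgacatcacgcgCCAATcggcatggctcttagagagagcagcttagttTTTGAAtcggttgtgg
CCNB1, chr5:69166900-69167199, plus strand: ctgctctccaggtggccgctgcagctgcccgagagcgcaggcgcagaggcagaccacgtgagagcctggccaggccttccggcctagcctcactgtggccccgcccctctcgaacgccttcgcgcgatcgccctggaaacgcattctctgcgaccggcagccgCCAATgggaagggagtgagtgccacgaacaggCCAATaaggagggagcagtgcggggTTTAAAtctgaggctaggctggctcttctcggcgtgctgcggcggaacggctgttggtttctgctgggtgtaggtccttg
BUB1 carried CCAAT boxes and neither TTTGAA nor TTTAAA, ECT2 carried TTTGAA and CCAAT, and CCNB1 carried TTTAAA and CCAAT. Other forms of the CHR were not searched for, so BUB1 is not shown to lack one.

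The next 60-base windows run from 50 bases before to 9 bases after the start base, counted as 0, with TTTGAA in capitals, as is TTCAAA, the same motif on the other strand. They are all the member windows with the motif wholly within these 60 bases, and show where in them the motif lay. These 10 members were lower after DOX.
NDC80, chr18:2571507-2571566, plus strand: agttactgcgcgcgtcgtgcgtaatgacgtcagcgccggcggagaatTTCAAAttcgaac
BUB1B, chr15:40161019-40161078, plus strand: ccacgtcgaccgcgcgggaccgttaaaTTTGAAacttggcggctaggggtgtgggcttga
CENPA, chr2:26786006-26786065, plus strand: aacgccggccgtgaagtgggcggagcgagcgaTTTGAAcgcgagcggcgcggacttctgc
PRC1, chr15:90994526-90994585, minus strand: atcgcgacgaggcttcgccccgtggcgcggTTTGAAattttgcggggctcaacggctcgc
DLGAP5, chr14:55191576-55191635, minus strand: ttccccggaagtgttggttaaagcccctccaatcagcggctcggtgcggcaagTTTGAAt
KIF18A, chr11:28108147-28108206, minus strand: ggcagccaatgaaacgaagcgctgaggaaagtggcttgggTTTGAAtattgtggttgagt
SPC25, chr2:168890421-168890480, minus strand: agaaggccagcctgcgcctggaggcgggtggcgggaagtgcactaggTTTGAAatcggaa
KIF4A, chrX:70290054-70290113, plus strand: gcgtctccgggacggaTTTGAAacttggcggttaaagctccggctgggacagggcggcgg
CDCA3, chr12:6851277-6851336, minus strand: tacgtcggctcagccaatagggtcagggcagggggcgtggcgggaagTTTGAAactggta
CCNB2, chr15:59105096-59105155, plus strand: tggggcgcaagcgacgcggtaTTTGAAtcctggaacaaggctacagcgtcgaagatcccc
These 7 members did not pass the test after DOX.
KIF11, chr10:92593080-92593139, plus strand: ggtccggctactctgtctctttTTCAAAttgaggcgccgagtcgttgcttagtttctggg
ANLN, chr7:36389812-36389871, plus strand: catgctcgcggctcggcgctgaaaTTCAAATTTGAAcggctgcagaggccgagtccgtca
CDCA8, chr1:37692466-37692525, plus strand: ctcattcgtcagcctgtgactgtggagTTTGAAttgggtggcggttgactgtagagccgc
GTSE1, chr22:46296820-46296879, plus strand: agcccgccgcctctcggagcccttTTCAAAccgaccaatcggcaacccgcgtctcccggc
KIF14, chr1:200620742-200620801, minus strand: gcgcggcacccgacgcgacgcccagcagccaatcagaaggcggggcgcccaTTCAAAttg
ESPL1, chr12:53268249-53268308, plus strand: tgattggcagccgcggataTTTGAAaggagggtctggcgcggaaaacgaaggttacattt
CENPN, chr16:81007164-81007223, plus strand: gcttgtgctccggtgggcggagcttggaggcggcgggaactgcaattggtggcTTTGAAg
The first base of the first match lay between −34 and 3 in the first set and between −31 and 3 in the second. Both ranges are bounded by the choice of windows with a match in these 60 bases. TTTGAA was present in 16 of 24 windows (66.7%) of members that were lower after DOX and in 10 of 17 (58.8%) of the others. CCAAT was present in 18 of 24 (75%) and in 13 of 17 (76.5%).

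Some facts of the series are given before the results on the members. Every array had a similar distribution of log2 values, pairs of arrays within a group correlated at r = 0.996 to 0.998, and no arrays were identical. The third pluripotent array stood apart most, with an array weight of 0.512 against 1.52 and 1.59 for the other pluripotent arrays. CDKN1A, the gene of p21, read 10.89, 10.77 and 10.56 on the DOX arrays, 8.0, 7.91 and 7.91 on the RA arrays and 7.06, 7.24 and 6.79 on the pluripotent arrays, with no overlap between groups. It was 13.1-fold higher after DOX (limma adjusted p = 1.55e-08) and 1.89-fold higher after RA (adjusted p = 0.000627). Of 10 measured pluripotency markers 2 fell after DOX (SOX2 and TERF1) and 2 after RA (TERF1 and NANOG), and none rose after DOX. Their summed linear level was 43740 to 46830 on the DOX arrays, 52010 to 54690 on the RA arrays and 49950 to 51590 on the pluripotent arrays. Of 12 fibroblast and stromal markers 4 rose after DOX (ACTA2, TAGLN, COL1A1 and THY1) and 1 fell, by 0.42 on the log2 scale. After RA 2 of these 12 rose and 2 fell, with changes from −1.76 to 1.00 over the list. Their summed level was 10130 to 10710 on the DOX arrays, 5036 to 5309 on the RA arrays and 5179 to 5291 on the pluripotent arrays, while LUM, POSTN and DCN lay below the median gene on the pluripotent arrays. Beside these marker counts, 5.67% of all genes rose and 9.6% fell after DOX, and 3.16% rose and 3.32% fell after RA. The part of CDKN1A and of the pluripotency and stromal markers in the results was not tested. In RNA from whole cultures, fewer cells in mitosis and less RNA per mitotic cell cannot be told apart.

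After 5 h of DOX the mitotic genes were lower. Of the 49 members, 28 fell and 0 rose against pluripotent cells (limma, adjusted p under 0.05 over all 19775 genes), while 9.6% of all genes fell and 5.67% rose (15.3% in either direction). Without the first or the second pluripotent array, 24 or 23 members fell, and 1183 or 1129 of all genes fell, against 1898 with all arrays; without the third, which stood apart most, 29 members fell. The falls were moderate, and no member changed as much as 2-fold. The median change over the 49 was −0.34 on the log2 scale, within a range of −0.81 to 0.18, beside a median of −0.0047 over all genes, and 48 members had a change below 0. The 28 called members had a median change of −0.46, which is 1.38-fold lower, with adjusted p-values of 2.91e-05 to 0.0253. At an unadjusted p under 0.05, 37 members were lower and 1 was higher, beside 3294 and 2068 of all 19775 genes. All 3 DOX arrays lay below all 3 pluripotent arrays in 38 members, where 17.4% of all genes did so. In 1 member, CENPN, they lay above, where 11.5% of all genes did so. The mean log2 value over the 49 members was 9.08, 9.07 and 9.07 on the DOX arrays, 9.43, 9.45 and 9.40 on the RA arrays and 9.44, 9.42 and 9.41 on the pluripotent arrays, so that the DOX arrays lay apart from the other 6 arrays and the RA and pluripotent arrays overlapped.

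**Figure D1:**
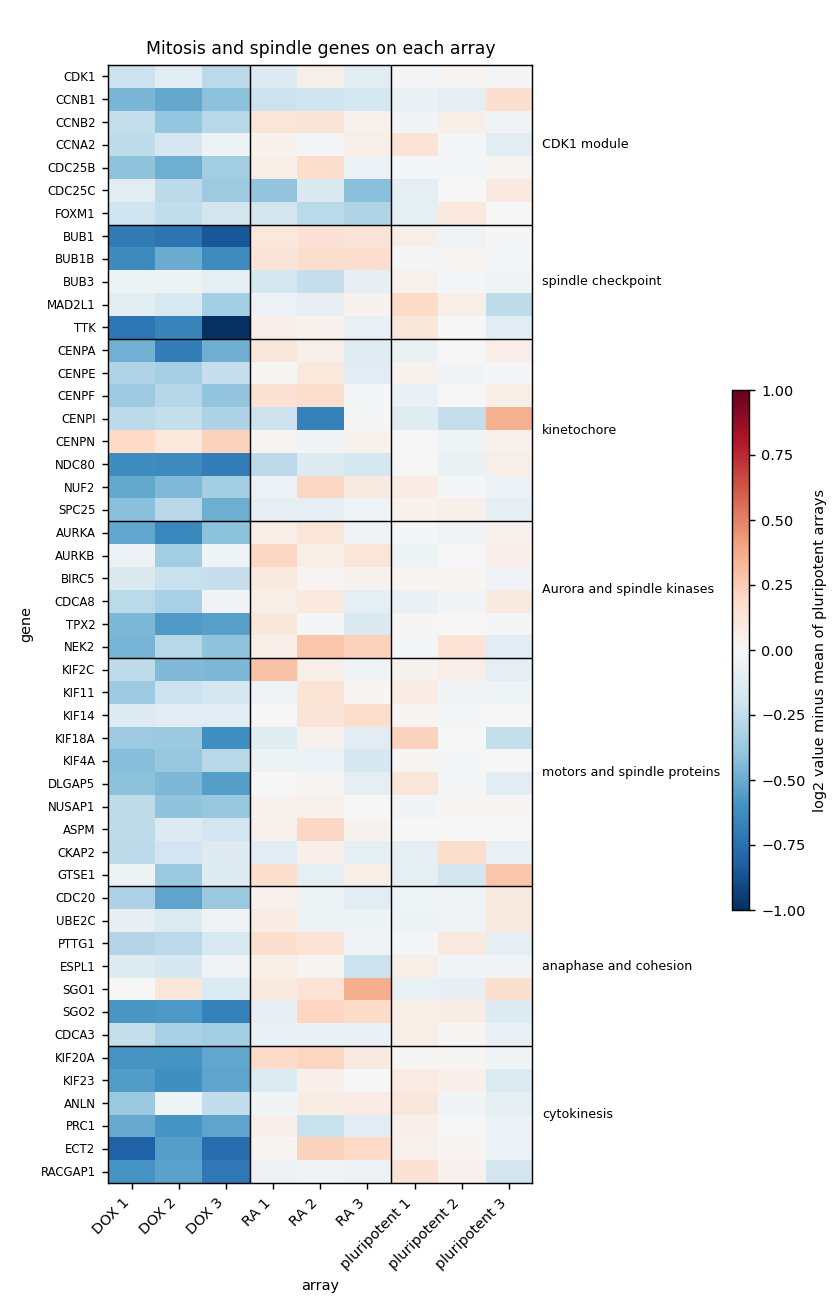
Each row is a member, grouped by role, and each column an array, with the DOX arrays first, then RA, then pluripotent; colour gives the log2 value minus that gene's mean on the pluripotent arrays, blue for lower and red for higher. The DOX columns are below the pluripotent mean in most rows, whereas the RA columns lie near it.

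Among the genes of the CDK1 switch, 3 of 7 fell after DOX. CCNB1, the gene of cyclin B1, read 10.89, 10.84 and 10.95 on the DOX arrays, 11.14, 11.15 and 11.18 on the RA arrays and 11.29, 11.26 and 11.52 on the pluripotent arrays. The 3 groups did not overlap, with the DOX arrays lowest. CCNB1 fell by 0.46 on the log2 scale after DOX (SE 0.08, 1.37-fold lower, limma adjusted p = 0.00266), but its brightest remaining probe set, used when probe sets that the array's naming marks as open to cross-hybridisation (x_at and s_at) were left out, gave −0.23 (adjusted p = 0.109). CCNB2, the gene of cyclin B2, fell by 0.30 (adjusted p = 0.0133), a call lost without the second pluripotent array (adjusted p = 0.0633) and, at −0.05 (adjusted p = 0.655), on the mean of its probe sets, of which 2 lie below the level of the median gene. CDC25B, a phosphatase that activates CDK1, read 7.64, 7.55 and 7.69 on the DOX arrays, 8.10, 8.21 and 7.98 on the RA arrays and 8.03, 8.02 and 8.07 on the pluripotent arrays. It fell by 0.41 after DOX (SE 0.08, adjusted p = 0.00384), with no overlap.

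The kinase gene CDK1 itself did not pass the test after DOX. It read 10.79, 10.89 and 10.74 on the DOX arrays, 10.87, 11.06 and 10.89 on the RA arrays and 10.99, 11.03 and 10.98 on the pluripotent arrays, a change of −0.20 after DOX (SE 0.08, adjusted p = 0.114). The DOX arrays lay below the pluripotent arrays, and CDK1 passed in 1 other setting, with a trended and robust spread (adjusted p = 0.0303). CCNA2, the gene of cyclin A2, changed by −0.16 (adjusted p = 0.256). FOXM1, a transcription factor of late cell cycle genes, read 8.87, 8.83 and 8.89 on the DOX arrays, 8.89, 8.80 and 8.77 on the RA arrays and 8.98, 9.17 and 9.06 on the pluripotent arrays. Both treated groups lay below the pluripotent arrays, and neither change passed the test (limma adjusted p = 0.078 after DOX and 0.0709 after RA), although that after DOX passed in 2 other settings (adjusted p = 0.0325 and 0.0388). CDC25C, another phosphatase of the CDC25 family, changed by −0.24 after DOX (adjusted p = 0.134).

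The spindle checkpoint genes split into 3 that fell and 2 that did not pass. TTK, the checkpoint kinase MPS1, read 8.99, 9.04 and 8.68 on the DOX arrays, 9.76, 9.75 and 9.64 on the RA arrays and 9.83, 9.71 and 9.60 on the pluripotent arrays. The DOX arrays lay apart, and the RA and pluripotent arrays overlapped. At −0.81 (SE 0.10, 1.75-fold lower, adjusted p = 0.000372) TTK had the largest fall of the 49. BUB1, a checkpoint kinase of the kinetochore, read 9.25, 9.22 and 9.10 on the DOX arrays, 10.05, 10.09 and 10.08 on the RA arrays and 10.01, 9.92 and 9.93 on the pluripotent arrays. The DOX arrays were lowest and the RA arrays highest, with no overlap. BUB1 fell by 0.76 after DOX (SE 0.07, 1.69-fold lower, adjusted p = 2.91e-05). BUB1B, the gene of the checkpoint protein BubR1, fell by 0.59 (adjusted p = 0.000166). Their partner BUB3, which brings both to kinetochores, read 11.12, 11.12 and 11.07 on the DOX arrays, 10.99, 10.94 and 11.09 on the RA arrays and 11.21, 11.15 and 11.14 on the pluripotent arrays. Both treated groups lay just below the pluripotent arrays and overlapped each other. BUB3 changed by −0.07 after DOX (SE 0.07, adjusted p = 0.59). MAD2L1, which inhibits the APC/C activator CDC20, changed by −0.20 (adjusted p = 0.287), with a 95% interval of −0.44 to 0.05, and by −0.33 without the third pluripotent array (adjusted p = 0.0363).

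At the kinetochore, 6 of 8 members fell after DOX. NDC80, the microtubule-binding subunit that names its complex, read 8.48, 8.46 and 8.41 on the DOX arrays, 8.84, 8.97 and 8.92 on the RA arrays and 9.10, 9.03 and 9.15 on the pluripotent arrays. The 3 groups stood apart, DOX lowest and pluripotent highest. NDC80 fell by 0.65 (SE 0.07, 1.57-fold lower, adjusted p = 0.000101). The other measured subunits of the complex among the members, NUF2 and SPC25, fell by 0.43 (adjusted p = 0.0055) and 0.39 (adjusted p = 0.00496). CENPA, the histone H3 variant of centromeres, read 7.57, 7.36 and 7.56 on the DOX arrays, 8.16, 8.10 and 7.93 on the RA arrays and 7.98, 8.06 and 8.11 on the pluripotent arrays. The DOX arrays were lowest, and the other groups overlapped. CENPA fell by 0.55 (SE 0.09, 1.47-fold lower, limma adjusted p = 0.00156), a call that rests on an x_at probe set alone. The kinesin CENPE fell by 0.29 (adjusted p = 0.0216) and the large kinetochore protein CENPF by 0.35 (adjusted p = 0.00969). The call of CENPE was lost without the first or second DOX or pluripotent array (adjusted p = 0.055 to 0.0805). CENPF changed by −0.11 (adjusted p = 0.294) on the mean of its probe sets, of which 1, with a mean of 3.28, lies below the median gene. Another CENPF probe set, well above the median gene with a mean of 8.015, showed no fall. Its change was 0.046 (adjusted p = 0.884 in the fit over all probe sets). CENPN, which binds CENPA nucleosomes, was the 1 member with a change above 0, at 0.18 (adjusted p = 0.0979, or 0.0184 to 0.0387 in 3 other settings where it passed), with 9.96, 9.86 and 9.99 on the DOX arrays and 9.76, 9.71 and 9.80 on the pluripotent arrays. CENPI, another protein of the inner kinetochore, was the noisiest member, reading 5.93, 5.96 and 5.88 on the DOX arrays, 5.98, 5.52 and 6.17 on the RA arrays and 6.08, 5.96 and 6.55 on the pluripotent arrays, and its change of −0.27 did not pass (SE 0.17, adjusted p = 0.362).

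Of the genes of the Aurora and spindle kinases and their partners, 3 of 6 fell after DOX: AURKA, its activator TPX2 and NEK2. AURKA, the kinase of spindle poles, read 9.52, 9.40 and 9.63 on the DOX arrays, 10.12, 10.16 and 10.01 on the RA arrays and 10.04, 10.01 and 10.09 on the pluripotent arrays. The DOX arrays were lowest, with RA and pluripotent arrays mixed. AURKA fell by 0.53 after DOX (SE 0.08, 1.44-fold lower, adjusted p = 0.00104). Its other bright probe set also fell, by 0.49 (adjusted p = 0.00446 in the fit over all probe sets). The dimmest, with a mean of 4.26, lies below the median gene at 5.96 and is not shown above background, and its change was 0.034 (adjusted p = 0.883). TPX2, which also brings AURKA to the spindle, read 8.91, 8.79 and 8.82 on the DOX arrays, 9.47, 9.35 and 9.22 on the RA arrays and 9.37, 9.37 and 9.34 on the pluripotent arrays. The RA arrays spread on both sides of the pluripotent arrays, well above the DOX arrays. TPX2 fell by 0.52 (SE 0.08, 1.43-fold lower, adjusted p = 0.00104). NEK2, a kinase of centrosome separation, read 8.11, 8.30 and 8.17 on the DOX arrays, 8.65, 8.86 and 8.81 on the RA arrays and 8.56, 8.71 and 8.46 on the pluripotent arrays. The DOX arrays were again lowest, and NEK2 fell by 0.38 (SE 0.09, adjusted p = 0.0149), a call lost without the first DOX array (adjusted p = 0.0527) or the second pluripotent array (adjusted p = 0.0698). The 3 members that belong to the chromosomal passenger complex did not pass: AURKB changed by −0.15 (adjusted p = 0.322), BIRC5, the gene of survivin, by −0.20 (adjusted p = 0.0584), and CDCA8, the gene of borealin, by −0.21 (adjusted p = 0.184). BIRC5 passed in 3 other settings (adjusted p = 0.012 to 0.0411).

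The motor and spindle protein genes fell in 5 of 10 cases. DLGAP5, which stabilises kinetochore fibres, read 10.23, 10.19 and 10.09 on the DOX arrays, 10.64, 10.67 and 10.54 on the RA arrays and 10.76, 10.63 and 10.53 on the pluripotent arrays. Only the DOX arrays stood apart. DLGAP5 fell by 0.47 (SE 0.08, 1.39-fold lower, adjusted p = 0.00238). KIF18A, a kinesin of chromosome alignment, read 6.88, 6.87 and 6.63 on the DOX arrays, 7.12, 7.29 and 7.13 on the RA arrays and 7.48, 7.24 and 7.01 on the pluripotent arrays. Its pluripotent arrays were widely spread but all above the DOX arrays, and it fell by 0.45 (SE 0.12, adjusted p = 0.0253). KIF2C, a microtubule depolymerase, read 9.38, 9.19 and 9.18 on the DOX arrays, 9.92, 9.69 and 9.58 on the RA arrays and 9.66, 9.69 and 9.53 on the pluripotent arrays. It fell by 0.38 (SE 0.10, adjusted p = 0.0233). Both calls were lost without the first or second pluripotent array or the third DOX array, and that of KIF2C also without the second DOX array, with adjusted p-values of 0.0759 to 0.0952. The chromokinesin KIF4A fell by 0.36 (adjusted p = 0.00465) and NUSAP1, a spindle microtubule protein, by 0.34 (adjusted p = 0.00489). KIF11, the kinesin that makes the spindle bipolar, changed by −0.25 (adjusted p = 0.0513). The other 4, the spindle pole gene ASPM, the kinesin KIF14 and the microtubule-associated CKAP2 and GTSE1, had changes between −0.19 and −0.11 that did not pass. Some of these passed in other settings: KIF11 in 4 (adjusted p = 0.0183 to 0.0395), ASPM in 2 (adjusted p = 0.0446 and 0.0447), and GTSE1 on the mean of its probe sets, at −0.25 (adjusted p = 0.0299), with 1 of its probe sets lower by 0.43 (adjusted p = 0.00602 in the fit over all probe sets).

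The genes of anaphase and cohesion fell in 3 of 7 cases. SGO2, a shugoshin that protects cohesin, read 7.68, 7.69 and 7.59 on the DOX arrays, 8.18, 8.48 and 8.45 on the RA arrays and 8.32, 8.34 and 8.13 on the pluripotent arrays. The DOX arrays were lowest, and the RA and pluripotent arrays overlapped. SGO2 fell by 0.61 (SE 0.09, 1.53-fold lower, adjusted p = 0.00129). Its other probe set, nearly as bright with a mean of 8.03, changed by −0.32 and was not called (adjusted p = 0.0952 in the fit over all probe sets). CDC20, the APC/C activator held by the checkpoint, read 10.51, 10.29 and 10.44 on the DOX arrays, 10.86, 10.76 and 10.71 on the RA arrays and 10.77, 10.77 and 10.91 on the pluripotent arrays. Again the DOX arrays alone stood apart, and CDC20 fell by 0.40 (SE 0.08, 1.32-fold lower, adjusted p = 0.00645). CDCA3, a mitotic entry factor, fell by 0.30 (adjusted p = 0.0102, or 0.0504 without the first pluripotent array). The securin gene PTTG1 changed by −0.24 (adjusted p = 0.0815, passing in 3 other settings at 0.0139 to 0.0412), the separase gene ESPL1 by −0.11 (adjusted p = 0.471), and UBE2C, the ubiquitin-conjugating enzyme of the APC/C, by −0.08 (adjusted p = 0.503). SGO1, the other shugoshin, was the 1 member whose probe set lay below the median gene, so its level is not shown to be above background. It read 5.01, 5.14 and 4.88 on the DOX arrays, 5.11, 5.15 and 5.38 on the RA arrays and 4.94, 4.93 and 5.17 on the pluripotent arrays. The groups overlapped, and its change after DOX was −0.01 (adjusted p = 0.98).

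Cytokinesis was the role with the most falls in proportion, 5 of 6, and had a median change of −0.57. The median of the spindle checkpoint genes was −0.59, and no difference between roles was tested. ECT2, which activates the GTPase RhoA at the division plane, read 9.14, 9.40 and 9.19 on the DOX arrays, 9.98, 10.18 and 10.15 on the RA arrays and 9.99, 9.97 and 9.89 on the pluripotent arrays. The DOX arrays were far below the others, which overlapped. ECT2 fell by 0.71 (SE 0.09, 1.63-fold lower, adjusted p = 0.000308), and its x_at probe set was also called lower, by 0.57 (adjusted p = 0.018 in the fit over all probe sets). Its dimmest probe set, with a mean of 3.13, lies below the median gene at 5.96 and is not shown above background, so its change of −0.02 (adjusted p = 0.935) cannot be read as the absence of a fall. RACGAP1, the centralspindlin subunit that binds ECT2, read 9.0, 9.05 and 8.87 on the DOX arrays, 9.53, 9.56 and 9.53 on the RA arrays and 9.73, 9.63 and 9.41 on the pluripotent arrays. The RA arrays lay within the range of the pluripotent arrays, and RACGAP1 fell after DOX by 0.62 (SE 0.09, 1.53-fold lower, adjusted p = 0.00095). KIF23, the other subunit of centralspindlin, fell by 0.57 (1.48-fold lower, adjusted p = 0.000877). KIF20A, a kinesin of the midzone, read 8.61, 8.60 and 8.68 on the DOX arrays, 9.40, 9.42 and 9.29 on the RA arrays and 9.22, 9.22 and 9.17 on the pluripotent arrays. The groups did not overlap, with RA highest, and KIF20A fell after DOX by 0.57 (SE 0.07, 1.49-fold lower, adjusted p = 0.000188). PRC1, which crosslinks midzone microtubules, fell by 0.54 (1.45-fold lower, adjusted p = 0.00106), and the scaffold gene ANLN changed by −0.22 (adjusted p = 0.159).

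**Figure D2:**
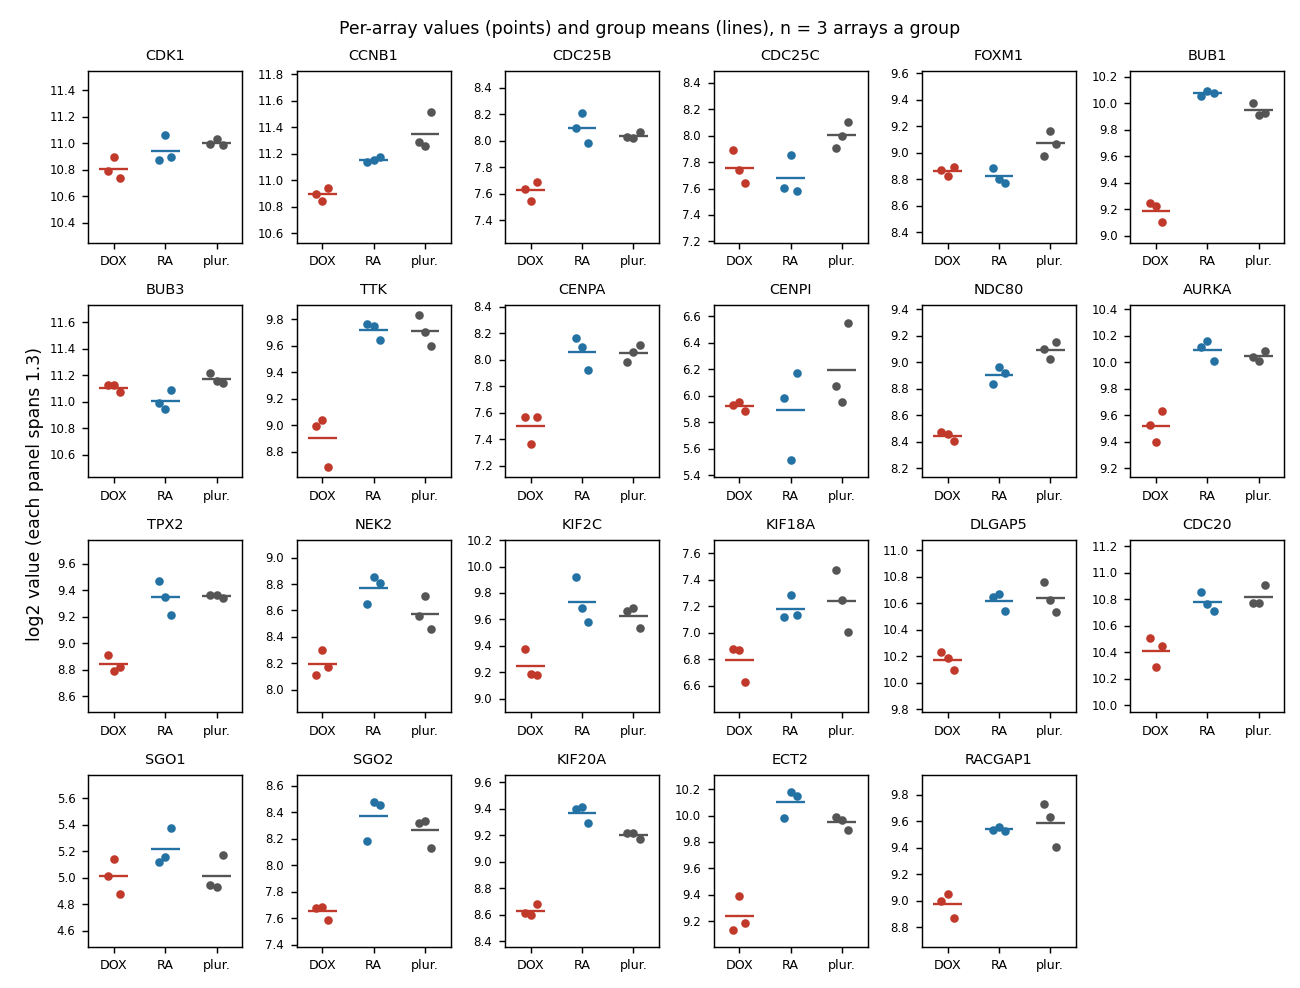
Log2 values of members named above, 1 point for each array, with DOX left of RA and RA left of pluripotent. For TTK, BUB1, NDC80 and ECT2 the 3 DOX points lie below all other points, and for CDC25C and FOXM1 both treated groups lie below the pluripotent points.

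After 2 days of RA no member passed the test in either direction. Of the 49, 0 fell and 0 rose (limma), where 3.32% of all genes fell and 3.16% rose (6.47% in either direction). Without the second pluripotent array 435 of all genes fell, against 656 with it, and without the second RA array 406 rose, against 624 with it. At an unadjusted p under 0.05, 5 were lower and 2 higher, beside 1859 and 1588 of all 19775 genes. These counts are no result about the members. The median change was 0.01 within a range of −0.32 to 0.20, and 46 members changed by less than 0.2 on the log2 scale. A p that misses the threshold does not show that levels are equal: the 95% intervals of 47 members lay within 0.5 of 0 on the log2 scale, and the widest reached −0.69 (CENPI) and 0.42 (SGO1). The arrays did not overlap in 6 members that were lower and 6 that were higher, beside 12.5% and 10.2% of all genes.

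The 5 members lower at an unadjusted p under 0.05 were FOXM1, CDC25C, CCNB1, NDC80 and BUB3. Their share of the members is near that of the 1859 among all 19775 genes. FOXM1 came nearest to a call, with a change of −0.25 (SE 0.07, 95% interval −0.41 to −0.09, adjusted p = 0.0709). CDC25C read 7.89, 7.74 and 7.64 on the DOX arrays, 7.60, 7.86 and 7.58 on the RA arrays and 7.90, 8.0 and 8.10 on the pluripotent arrays, with both treated groups below the pluripotent arrays. Its change after RA was −0.32 (SE 0.10, 95% interval −0.54 to −0.10, adjusted p = 0.0916). CCNB1 changed by −0.20 (adjusted p = 0.222), NDC80 by −0.19 (adjusted p = 0.159) and BUB3 by −0.16 (adjusted p = 0.229), each with all RA arrays below all pluripotent arrays. FOXM1 passed the test after RA in 4 of the alternative settings and CDC25C in 2, of which 1 left out the second RA array (−0.41, adjusted p = 0.0454). The 2 that were higher at an unadjusted p under 0.05 were BUB1B, at 0.16 (adjusted p = 0.233), and KIF20A, at 0.16 (adjusted p = 0.211). Both had all RA arrays above all pluripotent arrays, as did BUB1, AURKB, BIRC5 and ASPM, beside 10.2% of all genes. ASPM read the same value, 9.4604, on every pluripotent array, so these arrays gave it no spread.

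**Figure D3:**
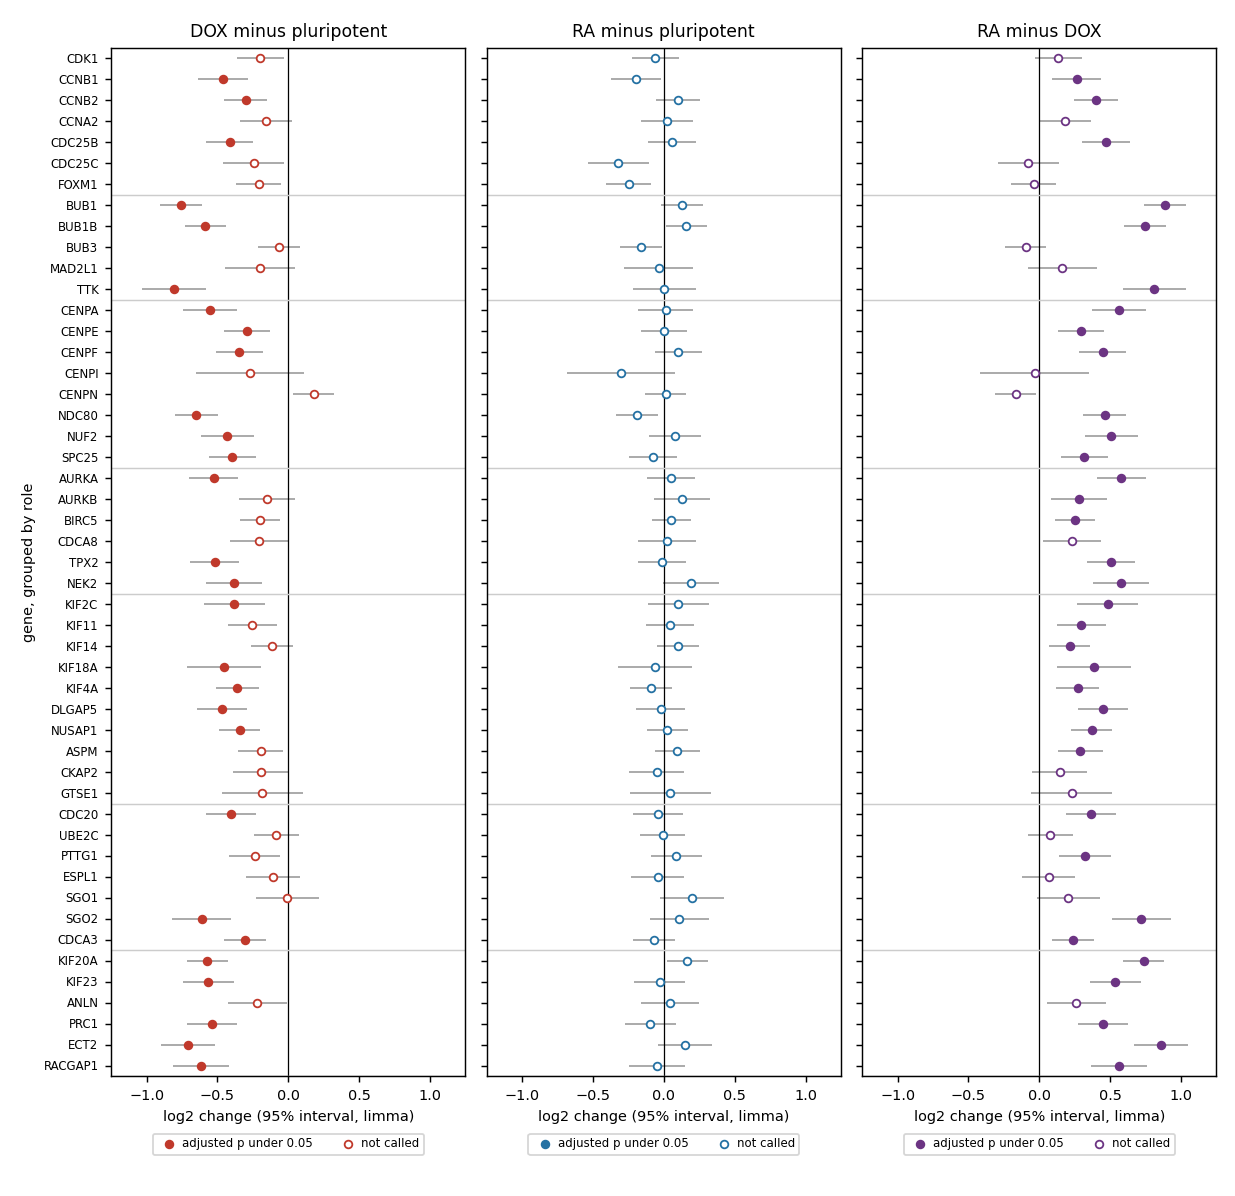
Log2 change of each member in 3 panels, DOX minus pluripotent, RA minus pluripotent and RA minus DOX, with 95% intervals from limma; genes are ordered by role and filled points passed the test. After DOX 48 of 49 points lie below 0, and after RA 46 lie within 0.2 of 0.

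The direct test of RA against DOX, which leaves out the pluripotent arrays from the difference, asks where the 2 treated groups differ. Of the 49 members, 34 were higher in RA cells than in DOX cells and 0 were lower, while 12.6% of all genes were higher and 8.62% lower (21.2% in either direction). All 3 RA arrays lay above all 3 DOX arrays in 38 members, where 19.6% of all genes did so, and below them in 1, where 15.2% did. The median difference was 0.32 on the log2 scale within a range of −0.17 to 0.89, beside −0.0040 over all genes. BUB1 differed most, by 0.89 (1.85-fold higher in RA cells, adjusted p = 5.19e-06), then ECT2 by 0.86 (1.81-fold, adjusted p = 4.35e-05) and TTK by 0.81 (1.76-fold, adjusted p = 0.000207). KIF20A differed by 0.74 (1.67-fold, adjusted p = 1.76e-05) and SGO2 by 0.72 (1.65-fold, adjusted p = 0.000264). This comparison and that of DOX with pluripotent cells use the same DOX arrays, so low DOX values enter both. BIRC5, AURKB, KIF11, KIF14, ASPM and PTTG1, 6 members that had not passed against pluripotent cells, passed here. The calls of those 6 and of CCNB1, CDCA3, CENPE, KIF18A and KIF4A, 11 in all, were each lost when at least 1 array was left out, with adjusted p-values of 0.0508 to 0.15. The fewest calls, 24, came without the second RA array. By role, RA was higher than DOX in 5 of 6 genes of the Aurora and spindle kinases and their partners. The same held for 8 of 10 motor and spindle genes, 5 of 6 cytokinesis genes and 6 of 8 kinetochore genes. It also held for 4 of 7 anaphase genes, 3 of 7 genes of the CDK1 switch and 3 of 5 checkpoint genes. FOXM1 and CDC25C did not differ past the threshold between the 2 treatments, with differences of −0.04 (adjusted p = 0.754) and −0.08 (adjusted p = 0.643).

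Genes of the mitotic machinery outside the 49 also fell after DOX in part. Of 98 measured genes of condensin, cohesin, the APC/C, the kinetochore, the spindle and mitotic entry, 26 fell and 2 rose, while 9.6% of all genes fell and 5.67% rose, and the median change was −0.15. These lists were drawn up with earlier results of the series known. By list, 3 of 8 condensin genes, 5 of 12 cohesin genes, 3 of 16 APC/C genes, 5 of 27 kinetochore genes, 9 of 23 spindle genes and 1 of 12 entry genes fell, of which the share of the entry genes is near that of all genes. The cohesin subunit RAD21 fell by 0.71 (adjusted p = 0.000515) and FBXO5, an inhibitor of the APC/C, by 0.78 (adjusted p = 0.000175). HJURP, the chaperone that loads CENPA, fell by 0.68 (adjusted p = 4.3e-05). The genes that rose were WEE1, whose kinase restrains CDK1, and SKA3 of the outer kinetochore. WEE1 read 11.52, 11.73 and 11.50 on the DOX arrays, 10.55, 10.56 and 10.62 on the RA arrays and 10.73, 10.74 and 10.78 on the pluripotent arrays. The DOX arrays stood far above the others, and WEE1 rose by 0.83 (SE 0.08, adjusted p = 3.47e-05). SKA3 rose by 0.29 (adjusted p = 0.0169), and when the first DOX, the first pluripotent or the second pluripotent array was left out, 1 of the 98 rose in place of 2. After RA none of the 98 passed in either direction, with 1 or 2 called lower in 4 of the other settings. At an unadjusted p under 0.05, 8 of the 98 were lower and 3 higher, beside 1859 and 1588 of all 19775 genes. Against DOX 29 were higher in RA cells and 2 were lower, while 12.6% of all genes were higher and 8.62% lower.

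The replication and licensing genes, measured on the same arrays, were called at shares near those of all genes. Of 32, 3 rose after DOX (TYMS by 0.62, RRM2 by 0.38 and PCNA by 0.35) and 4 fell (CDT1 by 0.54, MCM6 by 0.51, MCM2 by 0.29 and RFC4 by 0.25), while 5.67% of all genes rose and 9.6% fell. Their median was −0.08, beside −0.34 over the members, and the difference between the lists was not tested. After RA 1 of the 32 rose (CDT1, 0.28, adjusted p = 0.0448) and 2 fell (GINS3 and MCM6), while 3.16% of all genes rose and 3.32% fell. These counts are no result about the list.

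**Figure D4:**
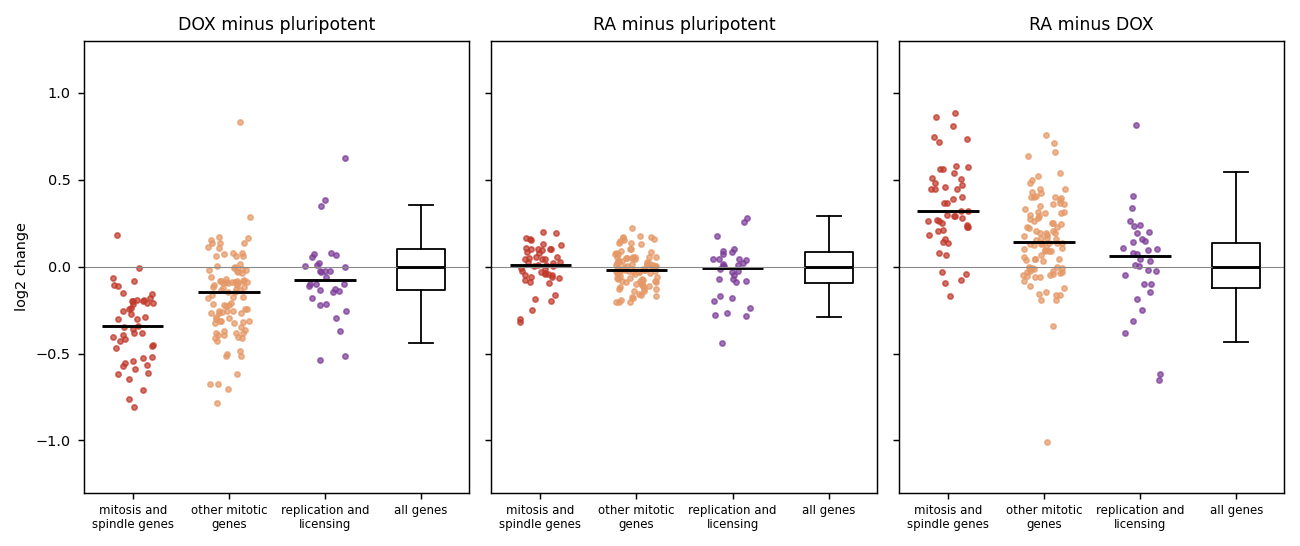
Log2 change of each gene (points) among the members, the other mitotic genes and the replication genes, with the median of each as a bar and all genes as a box with whiskers at their 5th and 95th percentiles, for DOX minus pluripotent, RA minus pluripotent and RA minus DOX. The members' median lies at −0.34 after DOX, below those of the other mitotic genes (−0.15) and the replication genes (−0.08), and the medians after RA lie near 0.

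Most members had more than 1 probe set, and these were compared. The 49 members had 103 probe sets of their own, 28 members with several, and 36 of the 103 were lower and 0 higher after DOX, with no member called in opposite directions. All probe sets lay below 0 in 17 of the 28 members, and all were called lower in 4 (NEK2, KIF2C, CDCA3 and KIF23). After RA 1 probe set, of BUB3, was called lower, by 0.48. Between RA and DOX, 40 probe sets were higher and 1, of CENPN, was lower. These calls come from a separate fit over all probe sets other than controls. The share called among all probe sets in that fit was not counted. The counts therefore describe only how far probe sets of the same gene went together.

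**Figure D5:**
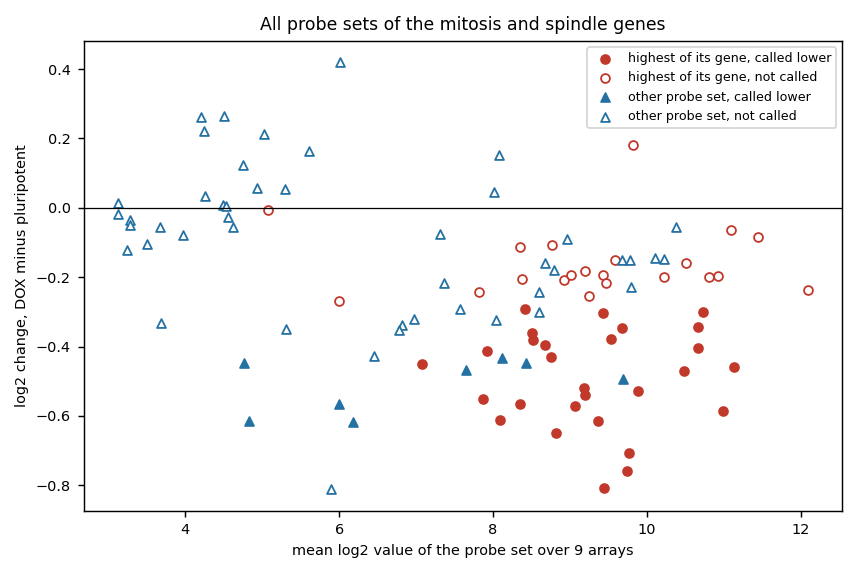
Log2 change after DOX of each of the 103 probe sets (y axis) against its mean log2 value over the 9 arrays (x axis); circles are the brightest probe set of each gene, triangles the others, and filled symbols were called lower. The changes above 0.2 are all at probe sets with a mean of about 6 or less.

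Over the 9 arrays the profiles most like the members' mean, among all other genes, were those of HJURP (Pearson r = 0.996), MAGEF1 (0.993), RBCK1 (0.992), OPN3 (0.991) and RASL11B (0.989). These correlations rest on arrays that share their groups, so they describe the pattern and carry no p.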

How the data were processed

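Biotin-labelled cRNA from total RNA was hybridised to 9 1-colour Affymetrix arrays, per the labels' protocols. The authors deposited log2 values per probe set, made with RMA (affy, no version stated) per the submitters' processing notes. This method corrects background, normalises by quantiles, which removes a shift shared by most genes, and summarises probes by median polish; it compresses fold changes of dim probe sets. The platform annotation assigned 41091 of 54675 probe sets to 1 gene; those with none or more than 1 were left out, as were 62 control probe sets. For 19775 genes the probe set with the highest mean was fitted with limma 3.58.1 (R 4.3.3, lmFit and eBayes) over all 9 arrays, with 3 contrasts, 6 residual and 4.63 prior degrees of freedom, and Benjamini-Hochberg adjustment over all genes; adjusted p under 0.05 was a call. The fit was tested on simulated data. The number of arrays limits precision. Alternatives were other probe sets, filters, normalization, array weights, a replicate block and single arrays left out. Members given by array were, in each role, those with the largest changes, plus CCNB1, CDK1, CDC20, AURKA, BUB3 and FOXM1, and examples were added from the lists. The members and lists were chosen with earlier results of these data known.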

Additional observations from a re-analysis of the deposited data

How the results depend on the processing

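Beside the 28 members that fell after DOX and the 34 that were higher in RA than in DOX cells, the other settings gave 27 to 34 and 30 to 35, apart from the removal of probe sets marked as open to cross-hybridisation, which left 39 members measured. There 17 fell after DOX (median −0.25) and 18 were higher in RA than in DOX cells (median 0.24), AURKA changed by 0.034 after DOX (adjusted p = 0.883) and differed by −0.069 between RA and DOX (adjusted p = 0.711), and ECT2 differed by −0.17 (adjusted p = 0.259); 8 of the 39, these 2 and CENPF among them, then rest on probe sets below the median gene, not shown above background. With the mean of all probe sets, with genes above the median level, and with a trended and robust spread, 1 member (CENPN) was called higher after DOX and 1 lower in RA than in DOX cells. After RA, 1 member (FOXM1) was called lower with the mean of all probe sets, a trended and robust spread or array weights, and 2 (with CDC25C) among genes above the median level. Further quantile normalization gave medians of −0.31 after DOX and 0.28 between RA and DOX. The cause of these shifts was not tested.

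Leaving out 1 array at a time gave 23 to 29 members lower and 0 to 0 higher after DOX (median −0.34 to −0.32), 0 to 1 lower and 0 to 0 higher after RA (median −0.0060 to 0.043; CDC25C without the second RA array), and 24 to 33 higher and 0 to 0 lower between RA and DOX (median 0.31 to 0.35). Of the 28 and 34 called members, 18 and 19 were called in every alternative that measured them. Among the called members, CDC25B, CENPA, TPX2, KIF18A, CDC20, PTTG1, PRC1 and RACGAP1 had only x_at or s_at probe sets. The setting without such probe sets did not measure them. Deviations from the group means correlated at −0.10 to 0.20 between same-numbered arrays and at −0.25 to 0.13 between differently numbered arrays of different groups. Whether the replicate numbers pair the arrays was not tested. With the replicate block 28 members fell after DOX, 0 passed after RA and 33 were higher in RA than in DOX cells. The number of arrays, 3 a group, limits the precision, and dim probe sets such as that of SGO1 have compressed changes.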
